A study of Mus musculus with 10 samples.

Results

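The 8 libraries described here hold RNA from CD8 T cells that were sorted from P511 mastocytomas, and they are described as 1 set whatever vector the cells carried. They were chosen by name from the 10 libraries of the series: NFAT5 1, 5 and 8, CA-RIT 2, 4 and 9, and eGFP 3 and 6. In every group, CD8 T cells with the TCRP1A receptor, which recognises the tumour antigen P1A, were activated for 24 h and then given a retroviral vector. The vector carried NFAT5 (a transcription factor of the NFAT family), NFAT1 CA-RIT (a constitutively active NFAT1 made unable to pair with AP-1), or eGFP alone. The cells were moved 24 h later into tumour-bearing B10D2 hosts that lack Rag1, and the sort followed 7 days after transfer. Hosts without Rag1 make no mature T or B cells of their own and still have myeloid and natural killer cells. The strain label is C57BL/6 in all groups. Age, any sort on the marker of the vector, and the mouse behind each library are not stated in the labels, so the spread between libraries of 1 vector may be technical. Levels under different vectors were not compared.

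CD8 T cells recognise a peptide on MHC class I through a receptor of 1 alpha and 1 beta chain, which signals through the CD3 chains and the kinase LCK. Effector cells kill with perforin and granzymes and release interferon gamma, TNF and chemokines. In tumours, lasting contact with antigen is known to raise inhibitory receptors such as PD-1, TIM-3 and LAG-3 and the factor TOX, while a smaller pool that keeps TCF1 can renew the response.

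The 8 libraries held 18.8 to 36.6 M estimated reads, so that 3 reads, the limit that a count of 0 allows, are 0.0821 to 0.160 CPM (reads of a gene per 1e+06 reads on all matched genes). The other CA-RIT library, number 10, had Cd8a at 0.0308 CPM, a summed level of 1412 CPM over 20 T cell identity genes against 30385 to 45400 CPM in the 8, and 5253 CPM over mast cell and P511 genes against 60.02 to 295. The other eGFP library, number 7, held 51112 reads. Among the 8, eGFP 3 stood apart: over 9298 genes whose mean was 5 CPM or more, Pearson r of log2(CPM + 1) was 0.745 to 0.804 in its 7 pairs and 0.907 to 0.968 in the other 21. Fewer genes were detected in it, with 9802 at 1 TPM (a level per transcript length, scaled to the same total in each library) or more against 10986 to 11772 in the other libraries. Many of the results that rest on eGFP 3 are given with and without it.

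The marker check upheld the label in all 8 libraries. All 20 T cell identity genes reached 1 TPM in each of the 8, as did 15.6% of all genes. Cd8a, the alpha chain of the CD8 coreceptor on which the cells were sorted (chr6:71373427-71379173, + strand, GRCm38, GENCODE M21), stood at 585, 665 and 605 CPM in NFAT5 1, 5 and 8, at 582, 583 and 629 CPM in CA-RIT 2, 4 and 9, and at 988 and 629 CPM in eGFP 3 and 6. Cd3e, a signalling chain of the receptor, was at 906, 874, 745, 1197, 907, 781, 623 and 989 CPM in the same order. Gzmb, the granule protease granzyme B, was at 3238, 1800, 1927, 3558, 2619, 2144, 11470 and 4771 CPM. Pdcd1, which encodes PD-1, was at 932, 204, 266, 886, 318, 730, 773 and 671 CPM. Cd8a stayed close between libraries of a vector apart from eGFP 3, Cd3e was highest in CA-RIT 2 and lowest in eGFP 3, Gzmb was far above the rest in eGFP 3, and Pdcd1 was low in NFAT5 5, NFAT5 8 and CA-RIT 4. Cd4 reached at most 3.76 CPM and Foxp3 at most 2.66 CPM.

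By TPM, the receptor chains led every library. Trbv5, a variable segment of the beta chain (chr6:41062332-41062803, + strand), was the highest gene of all 54337 in each library, at 36763, 29538 and 27323 TPM in NFAT5 1, 5 and 8, at 40254, 35982 and 37016 TPM in CA-RIT 2, 4 and 9, and at 43482 and 44304 TPM in eGFP 3 and 6. Trbc2, the beta constant region, was second in each, at 27072 to 41406 TPM. Trac, the alpha constant region, ranked between 3 and 6 with 11557 to 24085 TPM, and Trav12-3, an alpha variable segment, ranked between 6 and 10 with 6660 to 13433 TPM. TPM divides by length, and Trbv5 is 368 bases long. By CPM its median was 6757, under, among others, 18284 for Trbc2, 13722 for Actb and 10880 for Tmsb4x.

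A single pair of segments took nearly all reads on variable segments. Of the CPM on 22 beta variable segments, Trbv5 took 99.92 to 99.97% in the 8 libraries. The next, Trbv13-1, had 2.63 to 5.14 CPM against 5435 to 9655 CPM for Trbv5, the third, Trbv13-2, at most 0.533 CPM, and 15 of the 22 had no read in any library. Of the 97 alpha variable segments, Trav12-3 took 98.1 to 98.4% of the CPM and 69 had no read. The next were its relatives Trav12-2, at 23.4 to 50.6 CPM, and Trav12d-3, at 2.70 to 7.28 CPM, to which reads of a like sequence can be assigned. These shares were alike in eGFP 3 and the other 7 libraries. In CA-RIT 10, Trbv5 was at 7.63 CPM and Trav12-3 at 1.91 CPM. None of the 70 joining segments listed as genes and none of the 4 diversity segments had a read. Such segments are short and may be unable to hold reads in this quantification, so this is not read as absence. The Rag2 gene, needed to join the segments, had none in any of the 8, and Rag1 had at most 0.364 CPM.

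After the receptor, the upper ranks held, among others, genes of the cytoskeleton and of class I presentation. Tmsb4x, which encodes the actin-binding thymosin beta 4, had 15801 to 26397 TPM and ranked 3 or 4. Actb, the actin of the cytoskeleton, had 12967 to 16562 TPM, and Pfn1 (profilin), Coro1a (coronin of leukocytes) and Actg1 (a further actin) had medians of 6649, 3611 and 3855 TPM. The class I heavy chains H2-K1 and H2-D1 and their light chain B2m had medians of 5309, 5407 and 4911 TPM. Nkg7, a membrane protein of cytotoxic granules, was the highest effector gene at a median of 5382 TPM, 10562 in eGFP 3 and 4784 to 6222 in the other 7. Others of the highest 25 by median rank were mt-Atp8 (ATP synthase, mitochondrial genome), Ppia (cyclophilin A), the histone gene Hist1h2ap, Crip1 and the pseudogenes Gm10123 and Gm14303. Lgals1 (galectin 1), Gapdh, Ubb, Ftl1 (ferritin light chain) and Cd52 were there too. The medians of these genes ran from 9704 TPM (mt-Atp8) to 3078 TPM (Gm14303). Division by length raises short genes: mt-Atp8 and Gm14303 are 204 and 171 bases long, with medians of 276 and 54.9 CPM.

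**Figure D1:**
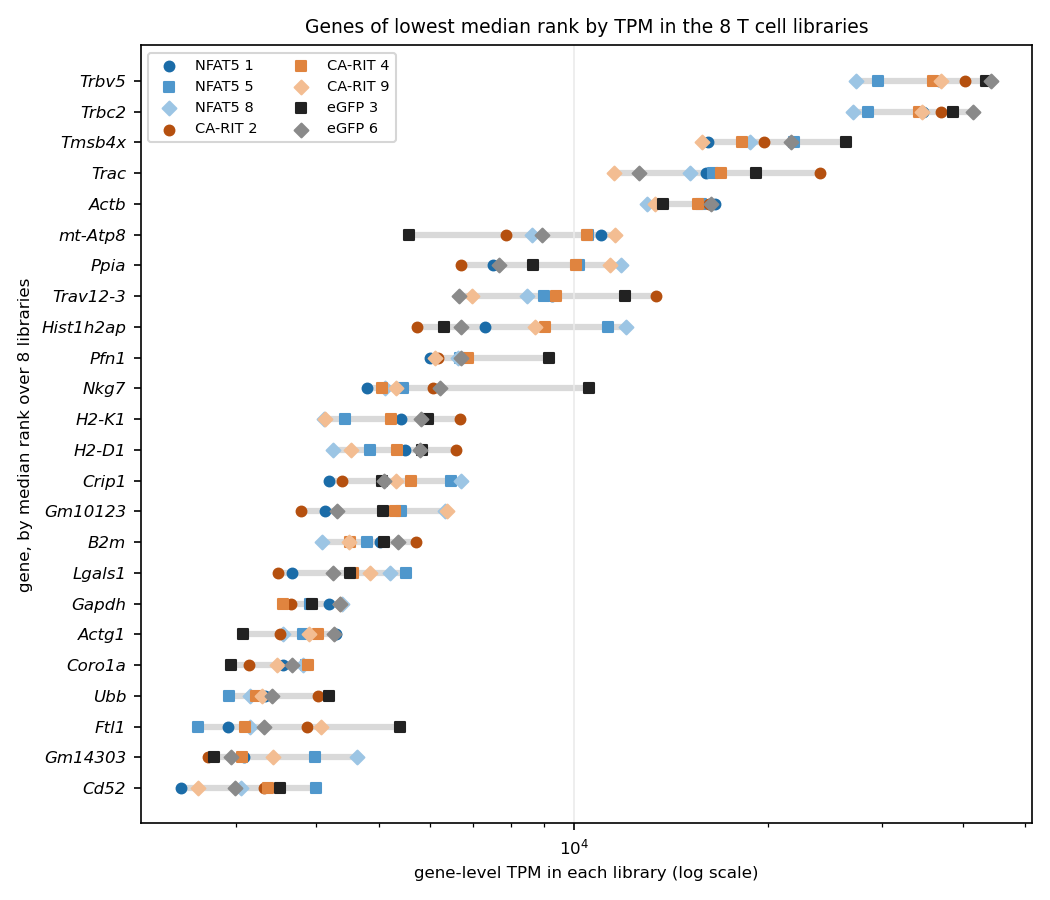
TPM (log axis) of 24 of the 25 genes with the lowest median rank, each point 1 of the 8 libraries, coloured by vector. Trbv5 and Trbc2 lie apart at the top in every library, and the points of Nkg7 show eGFP 3 away from the other 7.

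The ranking was shared to a large part. Of the 10 highest genes by TPM, 7 were among the highest 10 in all 8 libraries, 8 without eGFP 3, and 15 genes reached the highest 10 in any. For the highest 100 the numbers were 66, 73 and 141, and for the highest 500 they were 366, 396 and 655. The 50 highest genes took 28.0 to 32.7% of TPM, with the highest share in eGFP 3. Some ranks depend on near copies, between which reads can be split: Gm14303 shares 100% of its 31-base words with Rps29, Gm10123 shares 93.7% with Ppia, and Trbc2 shares 48.5% with Trbc1.

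Outside the protein-coding genes, which took 80.3 to 82.1% of TPM, receptor constant regions took 4.28 to 6.2%, receptor variable segments 3.61 to 5.58% and processed pseudogenes 3.92 to 5.73%. Long intergenic RNAs took 0.466 to 0.663%, led by AW112010 at a median of 1357 TPM (1128 to 2372). Of the immunoglobulin variable segments, 212 of 218 had no read, while the light chain constant gene Igkc had 129 to 244 TPM.

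The killing programme was high in every library and uneven in size. Gzma, a second granule protease, was at 755, 1553 and 1474 CPM in NFAT5 1, 5 and 8, at 357, 1029 and 267 CPM in CA-RIT 2, 4 and 9, and at 2143 and 1200 CPM in eGFP 3 and 6. Prf1, the pore-forming perforin, was at 1470, 465, 408, 2099, 792, 846, 2539 and 2061 CPM in that order. The orders of Gzma and Prf1 differed, since Gzma was lowest in NFAT5 1 and CA-RIT 9 of their vectors and Prf1 was highest in NFAT5 1 and CA-RIT 2. Gzmk ran from 321 to 870 CPM and Fasl, the death ligand, from 161 to 302 CPM. The granzymes Gzmc, Gzmd, Gzme and Gzmf of the same cluster as Gzmb were at most 6.53 CPM. Summed over 17 cytotoxic genes, of which 14 reached 1 TPM in all 8 libraries, the level was 9151 to 15200 CPM in 7 libraries and 27966 CPM in eGFP 3.

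Among secreted products, the chemokine Ccl5 was highest per length, at a median of 3170 TPM. Ifng, encoding interferon gamma, was at 254, 387, 362, 388, 306, 349, 811 and 384 CPM, in the order NFAT5 1, 5, 8, CA-RIT 2, 4, 9, eGFP 3, 6. Tnf was at 60.2, 151, 162, 27.5, 132, 37.7, 20.7 and 15.4 CPM, with NFAT5 5, NFAT5 8 and CA-RIT 4 well above the others of their vectors. Ccl4 and Ccl3, inflammatory chemokines, were at 193 to 652 and 64.0 to 404 CPM outside eGFP 3 and at 2846 and 1574 CPM in it. Il2 reached at most 0.674 CPM, Il21 at most 4.37 CPM, and Il17a had no read.

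Inhibitory receptors other than Pdcd1 were present at lower levels. Per length, the medians were 336 TPM for Pdcd1, 137 for Klrg1, 82.4 for Tigit, 71.7 for Cd160, 66.7 for Havcr2 (TIM-3) and 27.9 for Lag3. Ctla4 ran from 61.9 to 291 CPM, and Entpd1, encoding the ectonucleotidase CD39, from 53.4 to 146 CPM. Tox was at 229, 89.5, 107, 329, 108, 144, 99.4 and 194 CPM. It was highest in NFAT5 1, CA-RIT 2 and eGFP 6 within the vectors.

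Effector and exhaustion factors were present throughout. The medians per length were 477 TPM for Id2 and 345 TPM for Bhlhe40. Tbx21, encoding T-bet, was at 154 to 369 CPM, and Eomes, its relative, at 110 to 252 CPM. Stem-like genes were detected as well: Tcf7, which encodes TCF1, was at 57.3 to 165 CPM in 7 libraries and at 0.219 CPM in eGFP 3. Slamf6 was at 132 to 301 CPM. Ccr7, a chemokine receptor for lymph nodes, ran from 21.3 CPM in NFAT5 5 to 391 CPM in eGFP 3. Il7r was at 4.46 to 29.3 CPM. In bulk RNA, fewer cells of a type and less RNA per cell cannot be told apart.

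Proliferation genes were on in every library. Mki67 was at 214, 200 and 180 CPM in NFAT5 1, 5 and 8, at 175, 283 and 221 CPM in CA-RIT 2, 4 and 9, and at 72.9 and 101 CPM in eGFP 3 and 6. Top2a, the topoisomerase of mitotic chromosomes, was at 348 to 426 CPM in the NFAT5 and CA-RIT libraries and at 82.8 and 238 CPM in eGFP 3 and 6. Of 20 genes of G2 and mitosis, 20 reached 1 TPM in all 8, and of 18 genes of replication, 17 did.

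**Figure D2:**
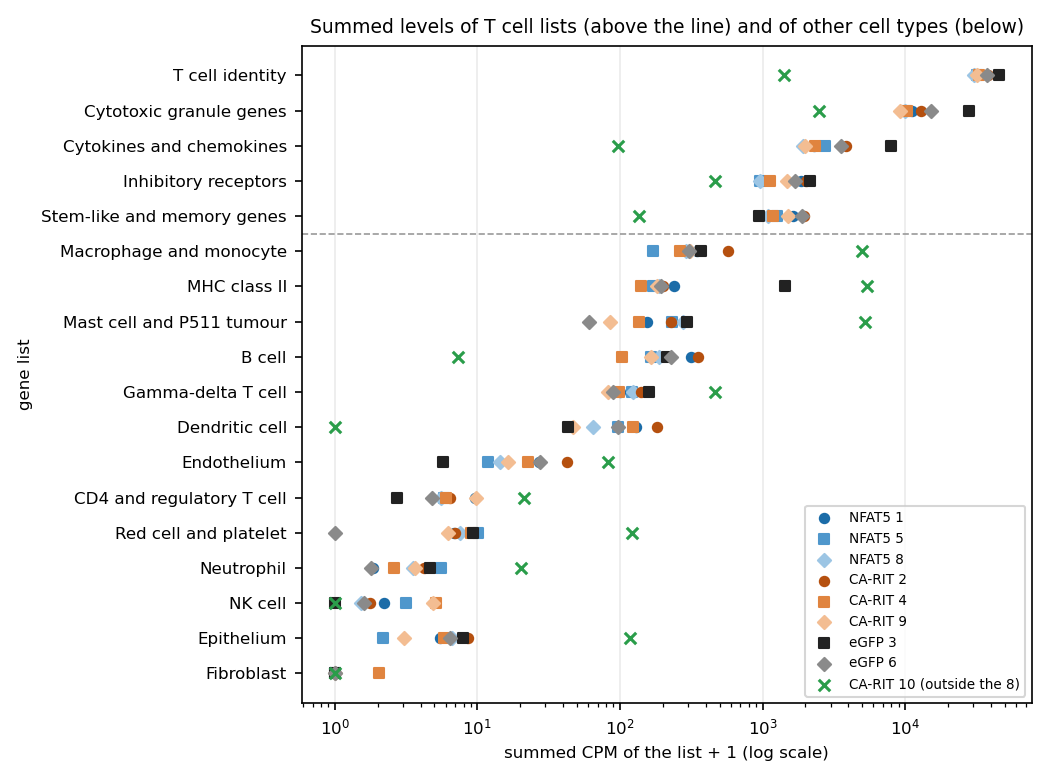
Summed CPM + 1 (log axis) of each gene list, T cell programmes above the dashed line and other cell types below it, with points for the 8 libraries coloured by vector and green crosses for CA-RIT 10. T cell identity lies at 30385 to 45400 CPM in the 8 and at 1412 CPM in CA-RIT 10, and the lists of other cells lie far lower in the 8.

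Over a large part of the genome no read was found. Of 54337 genes, 8473 (15.6%) reached 1 TPM in all 8 libraries, 7712 of them protein-coding, and 32551 (59.9%) had 0 reads in all 8. Among the 21813 protein-coding genes, 7558 (34.6%) were absent in this sense. Families of sensory and surface tissue genes stood above that share: 968 of 1134 olfactory receptors (85.4%), 233 of 321 vomeronasal receptors (72.6%), all 35 bitter taste receptors, 47 of 53 keratins, 56 of 57 keratin-associated genes, all 42 beta-defensins and 21 of 22 major urinary proteins. An exception was Olfr784, an olfactory receptor gene by name, at 6.6 to 27.3 CPM in the 8. Zinc finger, guanylate-binding protein, and Arp2/3 and septin genes lay under the 34.6% of all protein-coding genes. Of 394 zinc finger (Zfp) genes, 43 had no read (10.9%) and 105 reached 1 TPM in all 8. All 10 guanylate-binding protein genes had reads and 8 reached 1 TPM throughout, with Gbp7 at 111 to 213 CPM. The Arp2/3 and septin genes had 14 of 20 members at that level, with Arpc1b, an actin-branching subunit, at 1202 to 1442 CPM. Potassium channels and serpins lay above it with single members high. Among 94 potassium channel genes, 60 were absent (63.8%), while Kcnn4, a calcium-activated channel of activated T cells, was at 271 to 376 CPM. Of 61 serpins, 44 were absent (72.1%), while Serpinb9, an inhibitor of granzyme B, was at 430 to 662 CPM.

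Library eGFP 3 missed genes that the others had. At 0 reads in eGFP 3 alone were 1368 genes, 441 of them at a mean of 5 CPM or more, against 32 to 126 genes missing from any other library alone. Examples were Tbc1d9b, at 0 CPM against 44.1 to 96.0 CPM in the other 7, Xpo5, which exports microRNA precursors from the nucleus, at 0 against 37.8 to 61.9 CPM, and Eml4, at 0 against 33.5 to 80.0 CPM. Ccnf, which encodes cyclin F, was at 0.0274 CPM there and at 73.5 to 144 CPM in the others. Leaving eGFP 3 out raised the count of genes at 1 TPM or more in every library to 9515.

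Markers of other cells were absent or low with exceptions. No read was found for Pax5 and Jchain (B lineage), Kdr, Tek and Emcn (endothelium), Krt5, Krt14 and Krt8 (epithelium), 5 of 6 fibroblast genes, S100a9, Camp and Ngp (neutrophils) or Clec9a (dendritic cells). Other members of these lists had reads. B lineage genes summed to 103 to 354 CPM, with Ighm at 48.9 to 271 CPM and Igkc at 48.3 to 116 CPM. Dendritic cell genes summed to 42.1 to 180.4 CPM, for the larger part from Itgax, an integrin that activated T cells also carry, at 23.7 to 174 CPM. Endothelial genes summed to 4.71 to 41.8 CPM, all but a trace from Pecam1, which leukocytes also express. Itgax and Pecam1 were among the genes that varied within every vector. Epithelial genes summed to at most 7.57 CPM and neutrophil genes to at most 4.53 CPM. Natural killer genes summed to at most 4.11 CPM. Macrophage and monocyte genes, 15 in all with 3 at 1 TPM throughout and none absent, summed to 169 to 574 CPM against 5016 CPM in CA-RIT 10. Their leading members were Cd68 (a lysosomal protein) and Ctss (cathepsin S), at medians of 77.5 and 61.0 TPM, while Adgre1, which encodes the macrophage antigen F4/80, was at 0 to 5.29 CPM. MHC class II genes summed to 140 to 238 CPM in 7 libraries and to 1443 CPM in eGFP 3. The invariant chain Cd74 was at 52.9 to 90.6 CPM in those 7 and at 565 CPM in eGFP 3, where Spi1, the myeloid factor PU.1, was at 35.8 CPM against 0.213 to 5.86 CPM elsewhere.

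Tumour and mast cell genes were low and present. P511 is a mastocytoma, and the proteases Cma1 and Cpa3 were at 17.1 to 168 and 11.8 to 66.1 CPM in the 8, against 1351.5 and 1859 CPM in CA-RIT 10. Of the 16 genes in the list, Mcpt1, Tpsb2, Tpsab1, Fcer1a and Mrgprb2 had no read in the 8. Trap1a, the gene for the P1A antigen itself, was at 5.28, 10.2 and 5.55 CPM in NFAT5 1, 5 and 8, at 13.8, 5.49 and 6.84 CPM in CA-RIT 2, 4 and 9, and at 24.9 and 2.67 CPM in eGFP 3 and 6, against 331 CPM in CA-RIT 10. All 8 libraries thus held Trap1a reads, most in eGFP 3. The part of reads from tumour or myeloid cells in the results below was not tested.

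The spread between libraries of 1 vector was measured as the highest over the lowest CPM + 1. Over the same 9298 genes, the median was 1.48-fold over the 3 NFAT5 libraries, 1.48-fold over the 3 CA-RIT libraries and 1.68-fold over the 2 eGFP libraries, a pair of which eGFP 3 is a member. A range over 3 libraries tends to be wider than over 2, so these medians are not compared. At least 2-fold were 1895 genes in NFAT5 (20.4%), 1792 in CA-RIT (19.3%) and 3544 in eGFP (38.1%). Genes at least 2-fold within each of the 3 vectors are called variable here, and there were 514 (5.53%). Under 1.3-fold were 29.2% of genes in NFAT5, 28.4% in CA-RIT and 26.5% in eGFP. Genes under 1.3-fold within each of the 3 are called stable, and there were 406 (4.37%). Just inside the variable set lay Zfyve26, Frat2 and Zxda and just outside it Rpsa-ps10, Tma16 and Pak6, all at 2.00-fold in their smallest range. Lactb, Rnh1 and Lman1 were just inside and Zfand5, Prrc1 and Ints10 just outside the stable set. Without the eGFP pair, 849 genes (9.13%) were at least 2-fold within both NFAT5 and CA-RIT and 1128 (12.1%) under 1.3-fold within both.

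The genes that varied within a vector were partly shared. Of the genes at least 2-fold in NFAT5, 44.8% were so in CA-RIT, against 12.7% of the rest, and Spearman's rho over 9298 genes was 0.38 between the ranges in NFAT5 and CA-RIT, 0.23 between NFAT5 and eGFP and 0.19 between CA-RIT and eGFP. Every gene's ranges come from the same libraries, with their depth.

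T cell identity genes had narrower ranges than the median gene. Of the 20, none was variable and 3 were stable: Cd247, the zeta chain of the receptor complex, at 390 to 567 CPM, Lck, the kinase that starts its signal, at 1310.1 to 1673 CPM, and Trbc2. Without the eGFP pair the stable members were Cd8a, Cd247, Cd2, Thy1, Lck and Trbc2. The median range of the list was 0.26, 0.44 and 0.61 in log2(CPM + 1) in NFAT5, CA-RIT and eGFP, against 0.57, 0.57 and 0.75 over all 9298 genes.

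Inhibitory receptors and stem-like genes varied more. Of 11 inhibitory receptors, Lag3 and Cd244a were variable and none was stable, and without the eGFP pair 5 were at least 2-fold in both vectors, with Pdcd1, Btla and Klrg1 added. Lag3, which binds MHC class II, was at 88.5, 24.5 and 24.0 CPM in NFAT5 1, 5 and 8, at 155, 47.4 and 41.8 CPM in CA-RIT 2, 4 and 9, and at 24.8 and 105 CPM in eGFP 3 and 6, so that NFAT5 1, CA-RIT 2 and eGFP 6 were the high ones. Among the stem-like and memory genes, Tcf7, Id3 (an inhibitor of E proteins) and Cxcr5 were variable. Cxcr5, the follicle-homing receptor of stem-like cells, was at 14.5, 2.82 and 0.656 CPM, then 16.1, 0.898 and 1.63 CPM, then 0 and 9.02 CPM, high in the same 3 libraries. The list medians were 1.08, 1.07 and 0.89 for inhibitory receptors and 1.14, 1.08 and 1.68 for stem-like genes, on the log2(CPM + 1) scale.

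None of 13 cytotoxic genes and none of 14 factors was variable or stable, counts that lists of this size can give at the shares of all genes. The median ranges were 0.42, 0.57 and 0.51 for cytotoxic genes and 0.62, 0.62 and 0.92 for factors. Without the eGFP pair Gzma, Gzmm and Prf1 were at least 2-fold in both vectors, as was Tox, while Nkg7, Fasl and Tbx21 were under 1.3-fold in both. Among the chemokine and homing receptors, S1pr5 (a sphingosine phosphate receptor) and Itgal, the alpha chain of LFA-1, were variable. Itgal was at 1029, 651, 400, 1006, 918, 446, 214 and 790 CPM, and S1pr5 at 3.51, 15.4, 13.1, 1.35, 8.71, 1.67, 14.5 and 3.44 CPM, lowest in NFAT5 1, CA-RIT 2 and eGFP 6. Itgb7, an integrin of gut homing, was instead at 1495 to 1603 CPM in the NFAT5 and CA-RIT libraries and at 937 and 1895 CPM in eGFP 3 and 6.

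Housekeeping groups held no variable gene, beside 5.53% of all genes: none of 79 ribosomal proteins, 74 nuclear respiratory genes, 46 proteasome subunits, 20 glycolysis genes, 16 sterol synthesis genes or 17 genes of ER stress and amino acid response. At 5.53%, lists of 16 to 20 genes are too short for a count of 0 to stand apart. The ribosomal, respiratory and proteasome lists had median transcript lengths of 598, 617 and 1239 bases. Of all genes up to 1 kb 1.35% were variable, and of those of 1 to 2 kb 2.29%. Beside these lower shares, the counts of 0 in these 3 lists do not stand apart either. Few were stable either, beside 4.37% of all genes. There were 2 of 79 ribosomal (Rpl4 and Rpl32), 2 of 74 respiratory, 2 of 46 proteasome (Psmd4 and Psme3) and 2 of 20 glycolysis genes (Pfkp and Eno1). Of 16 sterol genes 0 were stable, and of 17 ER stress genes 3 were (Hspa5, the chaperone BiP, Xbp1 and Pdia4). Without the eGFP pair, under 1.3-fold in both vectors were 8 ribosomal, 6 respiratory, 6 proteasome, 2 glycolysis, 0 sterol and 5 ER stress genes. The share of all genes was 12.1%. Slc2a3 of the glycolysis list alone was at least 2-fold in both, beside 9.13% of all genes. Over all 9298 genes the median ranges in NFAT5, CA-RIT and eGFP were 0.57, 0.57 and 0.75 in log2(CPM + 1). Those of the lists were 0.47, 0.63 and 0.49 for ribosomal, 0.60, 0.49 and 0.77 for respiratory and 0.46, 0.54 and 0.66 for proteasome genes. They were 0.71, 0.50 and 0.40 for glycolysis, 0.52, 0.61 and 1.07 for sterol and 0.40, 0.52 and 0.64 for ER stress genes. Proteasome and ER stress genes were thus narrower in each vector, and the other lists lay on both sides. Hspa5 was at 2196, 2071, 2369, 2015, 2521, 2474, 2430 and 2406 CPM, with no library apart. Interferon response genes were the opposite case: 7 of 24 were variable (Isg15, Ifit3b, Mx1, Oas3, Oasl1, Stat2 and Ddx58), 10 without the eGFP pair, and none was stable. Ddx58, the RNA sensor RIG-I, was at 130, 26.7, 54.9, 99.0, 61.2, 28.4, 19.7 and 68.7 CPM, highest in NFAT5 1, CA-RIT 2 and eGFP 6. Isg15 did not follow that order in eGFP, where it was at 151 CPM in eGFP 3 and 36.1 CPM in eGFP 6.

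**Figure D3:**
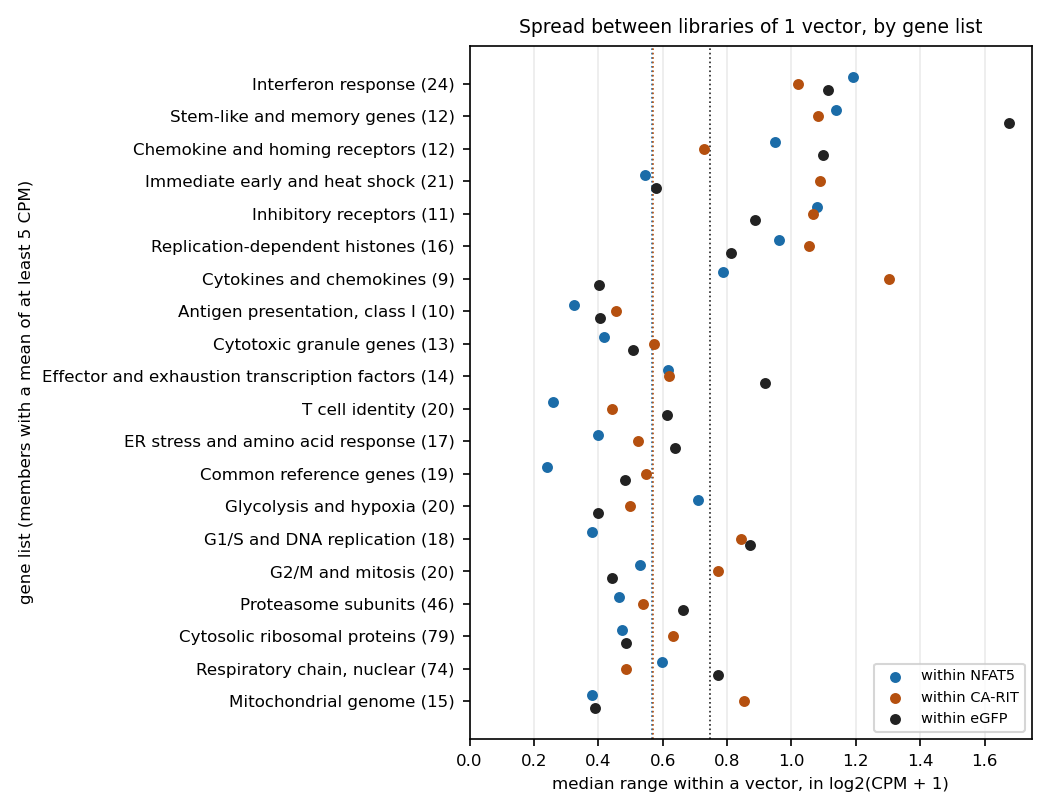
Median range within a vector, in log2(CPM + 1), of each gene list with measured members, 1 point per vector, with dotted lines at the median over the 9298 genes for each vector. T cell identity lies under the lines, and inhibitory receptors, stem-like genes and interferon response lie above them.

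Many variable genes were highest in the same libraries. Of the 514, 428 (83.3%) were highest in NFAT5 1 among the NFAT5 libraries, 362 (70.4%) in CA-RIT 2 and 404 (78.6%) in eGFP 6, and 270 (52.5%) were highest in all of these together. Their median of mean CPM was 18.3, against 38.1 for all 9298 genes. The shares by highest library were not counted over all 9298 genes. The order is thus not shown to be particular to the variable genes.

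Inducible heat shock genes and Jun belonged to this group. Hspa1b, an inducible HSP70 chaperone, was at 2426, 1160 and 380 CPM in NFAT5 1, 5 and 8, at 4379, 1121 and 1022 CPM in CA-RIT 2, 4 and 9, and at 663 and 5542 CPM in eGFP 3 and 6. Its neighbour Hspa1a was at 1635, 678 and 301 CPM, then 2820.5, 716 and 763 CPM, then 245 and 3625 CPM. Both were highest in NFAT5 1, CA-RIT 2 and eGFP 6, with ranges of 6.38-, 4.28- and 8.35-fold for Hspa1b. Jun, the AP-1 factor, was at 338, 152, 72.8, 663, 133, 170, 203 and 789 CPM and had the same 3 libraries on top. Hspb1, a small chaperone, was at 11.8, 1.71, 0.831, 16.5, 2.35, 7.41, 0 and 21.7 CPM. The rest of the chaperones moved less: Hspa8, the constitutive HSP70, was at 2109 to 3322 CPM, Dnajb1 at 181 to 305 CPM and Hsph1 at 127 to 251 CPM. Of these, Dnajb1 had NFAT5 1, CA-RIT 2 and eGFP 6 on top in a narrower range, and the other two did not. In all, 4 of 21 genes of the list were variable (Jun, Egr2, Hspa1a and Hspa1b). Egr2 was lowest in NFAT5 1 and CA-RIT 2 of their vectors, at 24.9, 58.6, 63.2, 14.0, 46.6, 18.7, 0 and 8.01 CPM.

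The promoters of these chaperones are printed because members that moved together and 1 that did not can be set side by side: the 250 bases before the start of Hspa1a (chr17:34972157-34972406, - strand), Hspa1b (chr17:34959239-34959488, - strand), Hspb1 (chr5:135887669-135887918, + strand) and Hsph1 (chr5:149636316-149636565, - strand), 5′ to 3′ from RefSeq for GRCm38.p6. Capitals mark GAANNTTC or TTCNNGAA, the paired units of the heat shock element bound by HSF1, and each pattern reads the same on the other strand, so both strands are covered.
Hspa1a: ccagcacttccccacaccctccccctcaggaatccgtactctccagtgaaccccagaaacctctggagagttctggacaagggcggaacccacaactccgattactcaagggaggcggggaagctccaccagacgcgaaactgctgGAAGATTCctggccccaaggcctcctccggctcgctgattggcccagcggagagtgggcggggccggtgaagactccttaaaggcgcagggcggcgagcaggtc
Hspa1b: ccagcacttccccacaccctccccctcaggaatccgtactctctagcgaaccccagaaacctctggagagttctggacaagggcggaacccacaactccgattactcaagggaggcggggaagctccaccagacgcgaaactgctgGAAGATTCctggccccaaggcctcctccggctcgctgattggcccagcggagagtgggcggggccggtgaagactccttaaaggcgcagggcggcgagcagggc
Hspb1: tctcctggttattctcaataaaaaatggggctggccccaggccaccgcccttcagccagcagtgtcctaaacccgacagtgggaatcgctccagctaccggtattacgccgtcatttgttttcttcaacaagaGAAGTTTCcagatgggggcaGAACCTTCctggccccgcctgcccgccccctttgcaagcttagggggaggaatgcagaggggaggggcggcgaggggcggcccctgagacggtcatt
Hsph1: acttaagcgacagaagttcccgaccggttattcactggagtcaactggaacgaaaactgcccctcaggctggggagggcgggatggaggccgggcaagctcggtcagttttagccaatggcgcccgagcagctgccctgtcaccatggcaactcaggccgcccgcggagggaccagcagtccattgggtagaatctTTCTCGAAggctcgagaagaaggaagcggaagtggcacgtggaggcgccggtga
The patterns lay 104 bases before the start in Hspa1a and Hspa1b, 117 and 97 before it in Hspb1, and 54 before it in Hsph1, the chaperone that was not variable. Jun had a match 128 bases before its start and Dnajb1 had none. Of 20476 promoter windows of this length, 2528 (12.3%) hold 1 of the patterns, and a match is a description of letters, not of binding. The Hspa1a and Hspa1b windows have 247 of 250 bases in common, and their transcripts share 63.8 and 67.6% of 31-base words, so reads can be split between the 2 genes.

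Most of the 25 most variable genes were at lower levels than these. Usp6nl was at 13.7, 4.69, 1.00, 19.96, 5.25, 1.28, 0.0274 and 9.19 CPM in the order NFAT5 1, 5, 8, CA-RIT 2, 4, 9, eGFP 3, 6. Sec16a, a scaffold of ER exit sites, was at 54.9, 20.6, 11.98, 67.1, 61.4, 13.8, 1.86 and 21.9 CPM. Atr, the kinase of replication stress, was at 13.4, 8.32, 2.49, 19.6, 6.46, 2.70, 0.0821 and 3.48 CPM. These 3 were lowest in NFAT5 8, CA-RIT 9 and eGFP 3, the libraries that held the lowest value for 63.0, 70.6 and 78.6% of variable genes. Those shares were not counted over all genes. Nlrc5, the transactivator of class I genes, had that order too, at 133, 40.2, 23.9, 179, 89.0, 47.4, 6.41 and 62.6 CPM, whereas its target B2m was stable at 3012 to 4046 CPM.

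A smaller set had another order, with its lows in NFAT5 5, CA-RIT 4 and eGFP 6. It held 23 of the 514 variable genes. Genes with unrelated orders can give a count of this size, and the share over all genes was not counted. Arg1, the arginase of alternatively activated macrophages, was at 15.4, 0 and 15.2 CPM in NFAT5 1, 5 and 8, at 50.8, 0.518 and 22.2 CPM in CA-RIT 2, 4 and 9, and at 27.0 and 0.364 CPM in eGFP 3 and 6. Chil3, a chitinase-like protein of such macrophages, was at 14.9, 2.98, 16.5, 18.5, 0.795, 67.1, 73.9 and 0 CPM. Ccl8, a monocyte chemokine, was at 16.25, 1.28, 3.28, 33.1, 0.553, 5.96, 52.1 and 0.405 CPM. Tgfbi (a matrix protein) and Ctsh (cathepsin H) shared the 3 low libraries. In CA-RIT 10 the levels were 1069 CPM for Arg1, 2997 for Chil3, 33.1 for Ccl8, 1002 for Tgfbi and 59.7 for Ctsh. Of the 23, 10 (43.5%) were higher in CA-RIT 10 than in any of the 8, against 151 of all 514 variable genes (29.4%) and 3155 of all 9298 (33.9%). Others of the 23, such as Ptprk, Enpp2, Dkk3 and Galnt18, had no read in CA-RIT 10. Some macrophage markers moved with this set. C1qb, a complement subunit made by macrophages, was at 7.46, 0 and 0.831 CPM in NFAT5 1, 5 and 8, at 8.85, 0 and 4.43 CPM in CA-RIT 2, 4 and 9, and at 10.1 and 0 CPM in eGFP 3 and 6. Mrc1, the mannose receptor CD206, was at 1.98, 0, 0.962, 10.2, 0, 0.851, 5.64 and 0 CPM, so that both had no read in the libraries where Arg1 was lowest. Others went differently: Lyz2 was at 12.6, 15.9, 67.4, 12.4, 12.2, 53.7, 0 and 0 CPM, and Itgam, which T cells can express too, was lowest in CA-RIT 9 and eGFP 3 of their vectors. Of the 14 macrophage markers outside the 23 genes, 5 were lowest in the same 3 libraries: C1qb, C1qc, Mrc1, Ms4a7 and Ctss. The share of all genes with these lows was not counted. The sum over the 14 was 332, 166 and 273 CPM, then 556, 262 and 241 CPM, then 296 and 304 CPM, lowest in NFAT5 5, CA-RIT 9 and eGFP 3, so the sum did not share the order in CA-RIT and eGFP. The part of macrophage RNA in the result was not tested.

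**Figure D4:**
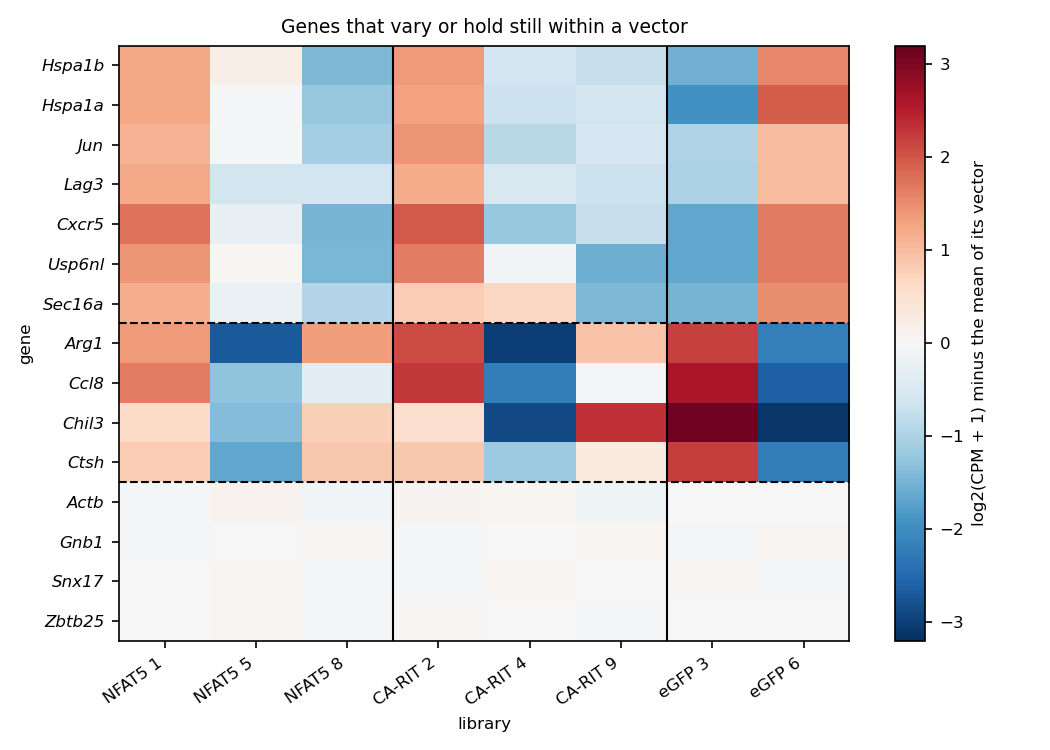
Log2(CPM + 1) minus the mean of its vector, for each of the 8 libraries (columns) and for genes of 3 kinds (rows): variable genes with the common order, variable genes low in NFAT5 5, CA-RIT 4 and eGFP 6, and steady genes. Hspa1b and Lag3 are high in NFAT5 1, CA-RIT 2 and eGFP 6, Arg1 is low in NFAT5 5, CA-RIT 4 and eGFP 6, and Actb and Gnb1 are near 0 throughout.

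Transcript length moved with the spread. The median length was 3236 bases for variable genes, 1653 for stable genes and 1975 for all. Of transcripts up to 1 kb, 1.35% were variable, of those of 4 to 6 kb 18.4%, and of those over 8 kb 26.7%. The difference between libraries of 1 vector had the same dependence: from NFAT5 1 to NFAT5 8 the median log2 difference was 0.42 for transcripts up to 1 kb and -0.84 for 4 to 6 kb. From CA-RIT 2 to CA-RIT 9 it went from 0.31 to -0.61, and from eGFP 6 to eGFP 3 from 0.56 to -1.34. From CA-RIT 2 to CA-RIT 4 it went only from 0.07 to -0.14. From NFAT5 1 to NFAT5 5 it went from 0.31 to -0.69, so NFAT5 1 differed in this from both other NFAT5 libraries. Spearman's rho of the difference with length was -0.55, -0.39, -0.50, -0.09 and -0.50 in that order over 8877 genes. With GC content it was between -0.14 and -0.01. Polr2a, a long transcript for the large subunit of RNA polymerase II, showed the order at 123, 88.9, 62.3, 137, 119, 56.7, 8.21 and 57.2 CPM.

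**Figure D5:**
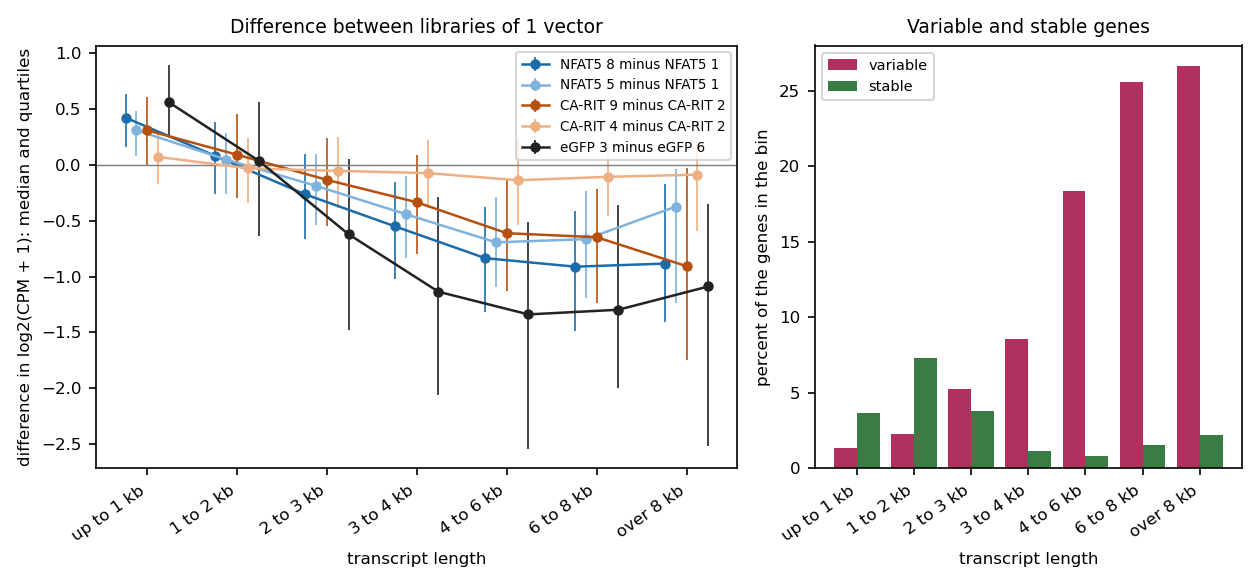
Left, median and quartiles of the log2 difference between libraries of 1 vector, by bin of transcript length in kb. Right, percent of genes in each bin that were variable or stable. Long transcripts were lower in NFAT5 5 and NFAT5 8 than in NFAT5 1. They were also lower in CA-RIT 9 than in CA-RIT 2 and in eGFP 3 than in eGFP 6. The variable share rose from 1.35% to 26.7%.

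With the length trend taken out of each library, 350 genes were variable, 240 of them among the 514. Among the list members that were variable both ways were Lag3, Tcf7, Cxcr5, Id3, Ccl3, S1pr5, Mx1, Isg15, Stat2, Jun, Egr2, Hspa1a and Hspa1b. Itgal, Ddx58 and Oas3 were no longer variable. These 350 are 3.76% of the 9298. Stable genes numbered 789 (8.49%), 177 of them among the 406. They held 22 of 79 ribosomal, 36 of 74 respiratory and 15 of 46 proteasome genes, and 1 of 20 T cell identity genes, which had 3 before.

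The stable genes had a median of mean CPM of 104, against 38.1 for all genes. Zbtb25, a zinc finger gene, led the ranking at 42.7, 44.3 and 41.9 CPM in NFAT5 1, 5 and 8, at 52.2, 50.4 and 49.9 CPM in CA-RIT 2, 4 and 9, and at 30.5 and 31.5 CPM in eGFP 3 and 6. Gnb1, a G protein beta subunit, was at 395, 415, 424, 441, 449, 471, 434 and 467 CPM. Snx17, which recycles receptors from endosomes, was at 134, 138, 126, 129, 138, 132, 145 and 139 CPM. Gnb1 and Snx17 kept a narrow range over all 8 libraries, eGFP 3 included. Srf, the serum response factor, was at 52.7 to 59.6 CPM, Rfxap, a subunit of the RFX complex, at 50.9 to 58.2 CPM, and Emc10, of the ER membrane insertase, at 133 to 159 CPM. Further members of the 25 most stable were Rab1a and Rab7 (vesicle traffic), Usp39 and Cdc5l (splicing) and Morf4l1 (chromatin).

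Common reference genes were not all steady. Of 19, 2 were stable, Actb and B2m, and none was variable, beside 4.37% and 5.53% of all genes. The median ranges of the list were 0.24, 0.55 and 0.48 in log2(CPM + 1) in NFAT5, CA-RIT and eGFP. Over all 9298 genes they were 0.57, 0.57 and 0.75. Without the eGFP pair 5 of the 19 were under 1.3-fold in both vectors, beside 12.1% of all genes: Actb, B2m, Ywhaz, Sdha and Rpl13a. Actb was at 13165, 14676 and 12687 CPM in NFAT5 1, 5 and 8, at 13835, 13609 and 11998 CPM in CA-RIT 2, 4 and 9, and at 14892 and 14547 CPM in eGFP 3 and 6. With the length trend taken out, none of the 19 was stable, beside 8.49% of all genes.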

How the data were processed

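RNA-seq of tumour-infiltrating CD8 T cells was analysed in 8 of 10 libraries. Transcripts were quantified with Salmon 0.14.1, per the submitters' processing notes, which name mm10 and GRCm38.p6. The deposited files hold estimated counts and TPM for each transcript, per the file headers. Nothing on trimming or run options is given in the sources used here. Tumours were digested, lymphocytes enriched on Ficoll and libraries made with a Clontech kit, per the labels' protocols.

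Of 140919 transcripts, 139966 were matched to GENCODE M21, a release inferred from 99.9% identical lengths, and the 953 others held 0.236 to 0.292% of reads. Estimated counts and TPM were summed over 54337 genes, and the counts were rounded to whole numbers. CPM divide by the reads on all matched genes, without TMM. Ranges use log2(CPM + 1) and genes whose mean was 5 CPM or more.

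No test was made, since vectors are not compared. The libraries, lists and rules were chosen with earlier results of these data known. Named genes were the 25 highest by median TPM rank, the 25 most variable, the 25 most stable, the 10 with the largest range in each vector, list members and the highest gene of each biotype. Receptor segments, gene family members, genes at the thresholds, near copies and genes of CA-RIT 10 outside these were named after their values were seen. Some genes are not reported here. Near copies and promoters were compared by 31-base words and by letters. Alternatives, among them edgeR 4.0.16 dispersions and a length trend removed by lowess (span 0.3, added after the data were seen), were run in Python 3.11.15 and R 4.3.3. The rule was run on simulated counts with no length trend and no library apart, so that run does not cover either. The limit of 3 reads bears on counts of 0 alone and does not cover counting error in the ranges.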

Additional observations from a re-analysis of the deposited data

Results flagged for a closer look

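In each of 65 sets of 8 values, the highest and lowest library was set against its nearest neighbour and the whole range, and 8 sets held a library that lay far out. For independent normal values this occurs in about 5% of sets. The 65 sets share libraries and some genes, so their count is not set against that share.

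Library eGFP 3 was far out in 7 of the 8 flagged sets. It had 9802 genes at 1 TPM or more, against 10986 to 11772 in the other libraries. Its summed CPM was 27966.5 over cytotoxic granule genes (9151 to 15200 elsewhere), 7944 over cytokines and chemokines (1914 to 3842), 1443 over MHC class II genes (140 to 238) and 49.6 over recombination and thymocyte genes (22.1 to 30.6), the last of which is nearly all Cd1d1. Pfn1 was at 9154 TPM there, against 6001 to 6875 TPM, and Nkg7 at 10562 TPM, against 4784 to 6222 TPM.

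Library eGFP 6 had a summed level of 0 CPM over red cell and platelet genes, against 5.18 to 9.17 CPM in the others.

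Library CA-RIT 10, outside the 8, had 22 genes at 10 CPM or more that had no read in any of the 8. Among them were Zfp521 at 32.0 CPM, Igdcc4 at 28.4 CPM and Gab1 at 21.3 CPM. In return, 821 genes at 1 TPM or more in all 8 had no read in CA-RIT 10, among them Gzma, Gzmk, Ifng, Klrd1 and Cd27.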

How the results depend on the processing

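The count of variable genes (514) was 256 with a pseudocount of 5 CPM, 974 with a mean of at least 1 CPM and 236 with a mean of at least 20 CPM. It was 477 with TMM, 479 with RLE, 409 with TPM and 350 without the length trend, of which 446, 447, 217 and 240 were among the 514. The count of stable genes (406) was 789 without the length trend, 363 with TMM, 371 with RLE and 513 with TPM, of which 177, 268, 266 and 188 were among the 406. Genes at 1 TPM in every library (8473) numbered 669 over all 10 libraries, since eGFP 7 holds 51112 reads, and genes absent (32551) numbered 7558 among protein-coding genes alone. The share of the 50 highest genes (a median of 29.5% of TPM) was 18.8% of CPM and 24.4% among protein-coding genes.

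With each library left out in turn, variable genes numbered 156 to 852, stable genes 524 to 1129, genes at 1 TPM in every library 8490 to 9515, absent genes 32803 to 33236, and the share 29.3 to 29.6%. Variable genes numbered 156 without NFAT5 1, 198 without CA-RIT 9, 258 without CA-RIT 2 and 284 without NFAT5 8, where a vector is left with a range over fewer libraries. They numbered 852 without eGFP 3 and 851 without eGFP 6, where the rule rests on NFAT5 and CA-RIT alone. Stable genes numbered 642, 631 and 687 without NFAT5 1, CA-RIT 9 and CA-RIT 2. Of the named genes' levels and ranges, 1228 moved by less than the spread between libraries and 47 by more.

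Of the variable genes, 115 (22.4%) were among as many genes of highest edgeR dispersion, and of the stable genes 204 (50.2%) were among those of lowest. The median SD within a vector, on the natural log of CPM + 1, was 0.291, beside a biological coefficient of variation of 0.365 in edgeR. No paired analysis was possible because the vectors share no replicate numbers and the results come from no test. At 18.8 to 36.6 M reads, a gene at 0 may lie under 0.0821 to 0.160 CPM.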
